A study of Mus musculus with 16 samples.

Results

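The Cd300 genes encode a family of immunoglobulin-like receptors on the surface of myeloid cells, and 6 rows of the count table that belong to this family or to gene models beside it are described here. They are Cd300a, Cd300lb, Cd300ld, Cd300lf, Gm11710 and Gm11711, 6 of the 24421 gene rows in the table. The rows were picked by gene symbol from results of these same libraries that were already known, and Gm11710 and Gm11711 with their equal counts in view. Their differences between groups are therefore given as a description beside the share of all genes that passed the same test, and not as independent evidence.

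The libraries came from subcutaneous MC38-Ova tumours, a murine colon adenocarcinoma line, grown in young adult C57BL/6 mice carrying the Kaede transgene, a protein that violet light switches from green to red fluorescence. Tumours were illuminated once and collected 24h or 72h later, so that Kaede-red cells had been in the tumour when it was illuminated and Kaede-green cells had entered it afterwards. Live CD45+ TER119- NK1.1- CD11b+ cells were sorted by colour, which gave 4 groups of 4 libraries: Kaede-green 24h, Kaede-red 24h, Kaede-green 72h and Kaede-red 72h. The labels give the treatment of all 16 libraries as control, put them in 1 batch and do not say which green and red libraries came from the same tumour.

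CD11b is carried by monocytes, macrophages and neutrophils and by part of the dendritic cells, so the sort does not isolate 1 cell type. Of 14 monocyte and macrophage markers all were detected in both colours, with Itgam, which encodes CD11b, at a mean of 78.2 CPM (counts per 1e6, scaled as described below) in Kaede-green libraries and of 112 CPM in Kaede-red libraries. Of 14 neutrophil genes in the table, 5 passed the filter on low counts, among them Csf3r, Il1r2 and Hdc. At the low end, S100a9 had no more than 21 counts in any library and Ngp had 0 in all of them. Total counts ran from 3216858 to 15423085 per library. The ribosomal RNA precursor Rn45s took 55.8 to 93.4% of them, and 468092 to 5472477 counts remained for other genes. Every group of Kaede-red libraries had a higher median of such counts than the Kaede-green group of its time. CPM values here are counts per 1e6 of the total after scaling with edgeR's TMM factors, which set the bulk of genes level between libraries. On this scale the 14 neutrophil genes summed to 53.5 to 124.5 CPM in a library.

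CD300 receptors bind lipids and other ligands exposed on dying cells and membranes, and tune phagocytosis, cytokine release and migration of the cells that carry them. Cd300a and Cd300lf encode receptors whose long cytoplasmic tails hold inhibitory motifs (ITIMs) that recruit phosphatases such as SHP-1 (Ptpn6). Cd300lb and Cd300ld encode short-tailed receptors that signal through adaptors bearing activating motifs (ITAMs), such as DAP12 (Tyrobp) and the Fc receptor gamma chain (Fcer1g). The genes lie side by side in a cluster that arose by duplication.

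The cluster spans chr11:114890041-115133992 in mm10, 243952 bases. Cd300a lies at chr11:114890041-114904654 on the plus strand, and the other members follow on the minus strand, Cd300lb at chr11:114922781-114934386, Cd300ld at chr11:114982274-114989922, Gm11710 at chr11:115020728-115027012, Gm11711 at chr11:115031486-115037769 and Cd300lf at chr11:115116214-115133992. RefSeq lists Gm11710 as an older name of Cd300ld4 and Gm11711 as one of Cd300ld5, and both are protein-coding genes of 4 exons. A further row of the table, Cd300lh at chr11:115042131-115048409, is listed there as Cd300ld3. Cd300lf lies wholly within the span of Rab37 on the opposite strand, with no exon base in common, and Rab37 had at most 15 counts in any library.

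Gm11710 and Gm11711 held the same count in all 16 libraries. Among the 10206 rows with a total of at least 100 counts, 58 rows (0.5683%) fell into 25 sets of rows that were equal in this way. The annotated transcripts of the pair, 852 bases each of which 735 are coding, differed at 1 base, G561A, counted from the transcript's 5′ end with the Gm11710 base first. Those of Gm11710 and Cd300lh differed at 10 bases. The stretch around the difference is shown because it is what a read would have to cover to tell the 2 rows apart. It lies in a coding exon, at chr11:115022731-115022831 for Gm11710, chr11:115033489-115033589 for Gm11711 and chr11:115044134-115044234 for Cd300lh, all on the minus strand in mm10. The capital marks the base at which Gm11710 and Gm11711 differ, and Cd300lh is identical to Gm11711 over these 101 bases.
Gm11710: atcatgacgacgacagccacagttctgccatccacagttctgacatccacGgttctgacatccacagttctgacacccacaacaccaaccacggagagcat
Gm11711: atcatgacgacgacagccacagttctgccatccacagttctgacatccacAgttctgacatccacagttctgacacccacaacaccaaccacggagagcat
Cd300lh: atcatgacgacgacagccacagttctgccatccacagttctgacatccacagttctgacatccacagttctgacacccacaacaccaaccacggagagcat

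At the read length of 150 bases, all 703 windows of the Gm11711 transcript were found unchanged in another Cd300 gene, as were 553 of 703 windows of Gm11710 (78.66%) and 559 of 703 of Cd300lh (79.52%). No such window existed in the transcripts of Cd300a, Cd300lb, Cd300ld or Cd300lf. Reads were trimmed, and in windows of 50 bases another Cd300 gene shared 3.89% of those of Cd300ld, 1.91% of Cd300lf and 1.9% of Cd300a. None of Cd300lb was shared. The counts of Cd300lh were 75.93 to 116.67% of those of Gm11710 in single libraries, with a median of 98.3%. A read of 150 bases from most places in these 3 transcripts thus fits more than 1 of them. The cause of the equal counts of Gm11710 and Gm11711 was not tested. These 2 rows are treated below as 1 measurement that cannot be assigned to a single gene.

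**Figure D1:**
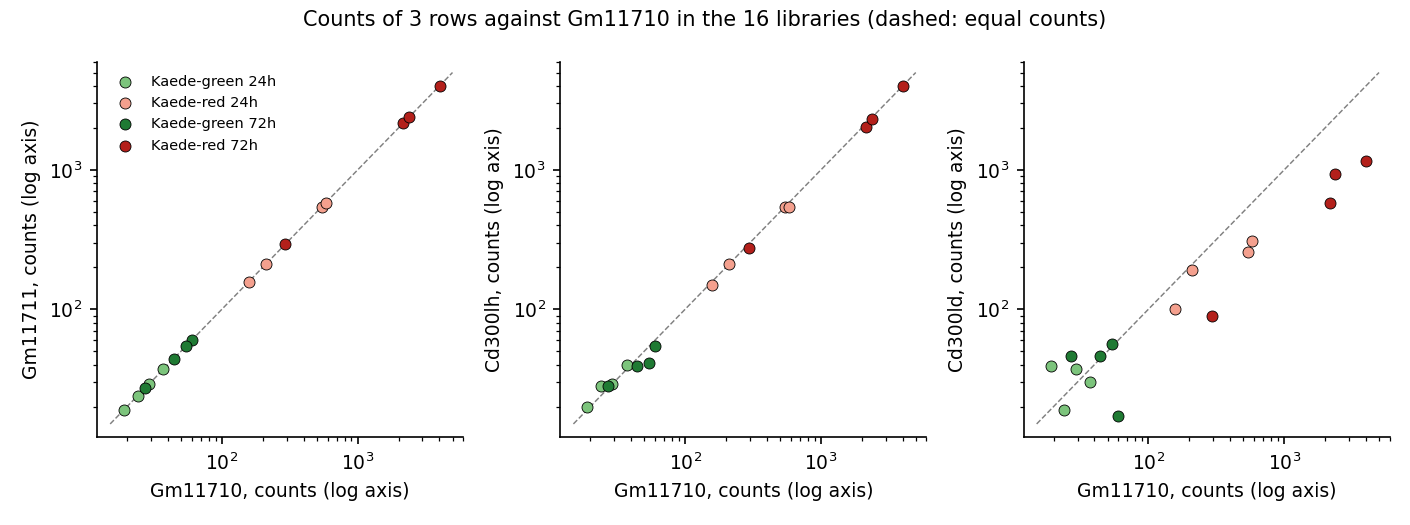
Counts of Gm11711, Cd300lh and Cd300ld (vertical, log axis) against counts of Gm11710 (horizontal, log axis) in the 16 libraries, coloured by group. All Gm11711 points lie on the dashed line of equal counts, Cd300lh lies within 75.93 to 116.67% of it, and Cd300ld falls below it in all 8 Kaede-red libraries.

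The promoters of Gm11710 and of Cd300ld are shown because these genes are close relatives and were both higher in Kaede-red cells, and that of Cd300lf because it holds the same motif while the gene passed in no comparison. Each runs from 250 bases before to 50 bases after the start given by RefSeq in GRCm38.p6. Capitals mark GAGGAAGT, a purine-rich sequence of the kind bound by PU.1 and related ETS factors, searched on both strands. Gm11710 and Gm11711 have the same 300 bases, and Cd300lh differs from them at 15. The stretches lie on the minus strand at chr11:115026884-115027183 for Gm11710, chr11:114989837-114990136 for Cd300ld and chr11:115133943-115134242 for Cd300lf.
Gm11710: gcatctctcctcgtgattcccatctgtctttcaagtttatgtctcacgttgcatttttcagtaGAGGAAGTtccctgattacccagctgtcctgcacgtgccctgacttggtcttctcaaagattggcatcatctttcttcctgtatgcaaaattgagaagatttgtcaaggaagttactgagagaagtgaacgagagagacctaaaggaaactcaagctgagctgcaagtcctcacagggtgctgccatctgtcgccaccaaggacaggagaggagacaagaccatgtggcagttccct
Cd300ld: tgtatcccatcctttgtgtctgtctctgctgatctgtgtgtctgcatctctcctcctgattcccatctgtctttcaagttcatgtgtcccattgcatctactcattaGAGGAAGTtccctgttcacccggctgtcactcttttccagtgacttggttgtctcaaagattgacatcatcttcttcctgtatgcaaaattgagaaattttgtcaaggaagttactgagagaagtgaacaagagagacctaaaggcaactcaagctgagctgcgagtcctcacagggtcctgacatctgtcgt
Cd300lf: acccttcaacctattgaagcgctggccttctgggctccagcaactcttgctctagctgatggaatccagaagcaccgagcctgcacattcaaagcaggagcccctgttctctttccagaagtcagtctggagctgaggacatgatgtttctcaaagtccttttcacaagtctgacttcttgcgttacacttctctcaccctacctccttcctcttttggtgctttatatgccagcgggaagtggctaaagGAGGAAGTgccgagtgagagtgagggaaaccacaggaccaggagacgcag

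The motif was found in 5 of 10 promoters of the cluster, at -187 in Gm11710, Gm11711 and Cd300lh, at -143 in Cd300ld and at 1 in Cd300lf, and not in those of Cd300a and Cd300lb. In 32851 mouse promoters of the same length it occurred in 1052 (3.2%). Since 3 of the 5 are near-identical copies and the Cd300ld promoter resembles theirs, the 5 are not independent occurrences. The share is a description of the cluster's sequence. When aligned, the Cd300ld promoter was identical to that of Gm11710 at 65.7% of positions and to that of Cd300lf at 48.45%.

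Over both times, 4 of the 6 rows were higher in Kaede-red than in Kaede-green cells in edgeR's quasi-likelihood test, in which 1 fit held all 16 libraries and p-values were adjusted (Benjamini-Hochberg) over 9642 genes. All 6 rows passed edgeR's filter on low counts, and of all genes tested 20.3% passed in either direction. The 4 rows were Cd300lb, Cd300ld, Gm11710 and Gm11711, which are 3 distinct sets of counts, and neither ITIM-bearing receptor passed. The median log2 fold change of the 6 rows was 0.89 and that of all genes 0.06. In a bulk sample, a larger number of cells that express a gene and more RNA per cell cannot be told apart.

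**Figure D2:**
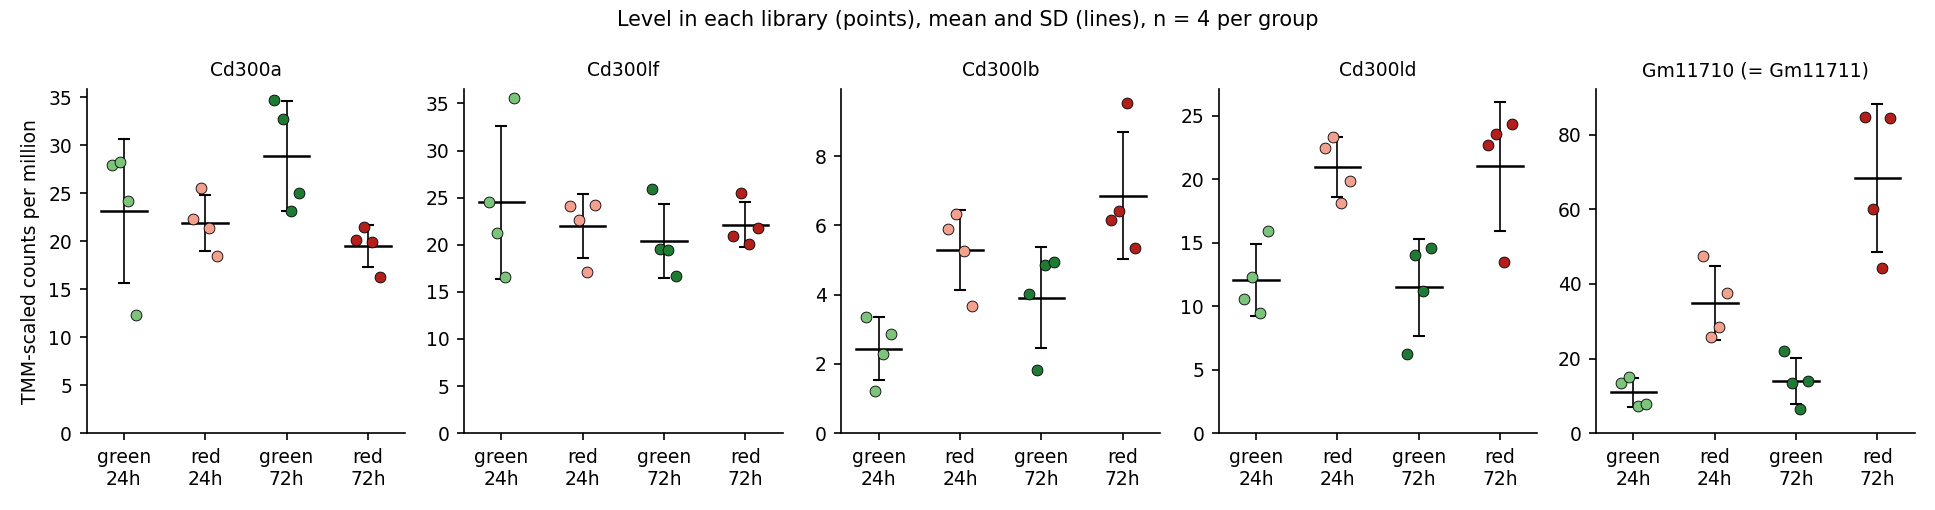
TMM-scaled CPM (vertical, from 0) of 5 rows in the 4 groups, with 1 point per library, the mean as a bar and the SD as an error bar (n = 4). Gm11710 lies at 25.7 CPM or above in all Kaede-red libraries and at 21.9 CPM or below in all Kaede-green ones, whereas the Cd300lf groups overlap.

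Cd300lf encodes an inhibitory receptor that also carries a motif for phosphatidylinositol 3-kinase. Its levels in the Kaede-green 24h libraries were 24.5, 21.3, 16.6 and 35.6 CPM, and in the Kaede-red 24h libraries 24.2, 22.6, 17.1 and 24.2 CPM. The values at 72h were 26.0, 19.5, 19.5 and 16.7 CPM for Kaede-green and 21.0, 25.5, 20.1 and 21.8 CPM for Kaede-red libraries. The colours overlapped at both times. The log2 fold change, Kaede-red to Kaede-green, was -0.13 ± 0.22 (SE) at 24h and 0.13 ± 0.22 at 72h, with adjusted p-values of 0.788 and 0.751 in edgeR.

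Cd300a encodes the other inhibitory receptor, known for binding phosphatidylserine and phosphatidylethanolamine. At 24h it stood at 27.9, 28.3, 24.2 and 12.3 CPM in the Kaede-green libraries and at 22.3, 25.5, 21.4 and 18.4 CPM in the Kaede-red ones. At 72h the Kaede-green libraries had 34.7, 32.7, 23.1 and 25.0 CPM and the Kaede-red libraries 20.2, 21.5, 20.0 and 16.3 CPM. Replicate 4 of Kaede-green 24h lay below all other libraries, and at 72h every Kaede-red library lay below every Kaede-green one. The log2 fold change was -0.56 ± 0.22 (SE) at 72h, with an adjusted p of 0.0713 in edgeR, and -0.08 ± 0.23 at 24h. The difference at 72h passed under 6 of 9 alternative settings, among them DESeq2 (-0.60, adjusted p = 0.0236) and the replicate number as a block (-0.56, adjusted p = 0.0429), and also without Kaede-green 24h replicate 4 (-0.58, adjusted p = 0.0249). These 9 leave out scaling by library size alone, which shifted nearly all genes upwards. Over both times the log2 fold change was -0.32 ± 0.16 (adjusted p = 0.152 in edgeR). Of the same 16 fits only 1 passed over both times, again that without Kaede-green 24h replicate 4 (-0.44, adjusted p = 0.0241).

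Cd300lb encodes a short-tailed receptor that pairs with DAP12, and it was the least abundant of the 4 named receptors, with 3 to 20 counts in a Kaede-green and 29 to 255 in a Kaede-red library. The Kaede-green 24h libraries held 3.35, 1.23, 2.29 and 2.86 CPM and the Kaede-red 24h libraries 5.89, 6.33, 5.26 and 3.68 CPM. The Kaede-green 72h libraries held 4.02, 1.83, 4.87 and 4.94 CPM and the Kaede-red 72h libraries 6.15, 6.43, 9.53 and 5.35 CPM. At each time all Kaede-red libraries lay above all Kaede-green ones. The log2 fold change over both times was 0.95 ± 0.25 (SE), with an adjusted p of 0.00623 in edgeR. Neither time passed alone. The 24h value was 1.14 ± 0.38 with an adjusted p of 0.0663. That of 72h was 0.76 ± 0.32 with one of 0.105. Of the 16 fits with 1 library left out, 1 passed at 24h, that without Kaede-red 24h replicate 4 (1.30, adjusted p = 0.0494). Without Kaede-green 24h replicate 2 the adjusted p at 24h was 0.181.

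Cd300ld encodes a short-tailed receptor that pairs with the Fc receptor gamma chain. At 24h Kaede-green libraries gave 10.6, 12.3, 9.43 and 15.95 CPM and Kaede-red libraries 22.5, 23.4, 18.2 and 19.9 CPM. At 72h the values were 6.21, 14.0, 11.2 and 14.6 CPM for Kaede-green and 22.7, 23.6, 13.5 and 24.4 CPM for Kaede-red libraries. The colours did not overlap at 24h, and at 72h only Kaede-red replicate 3 fell within the Kaede-green range. Over both times the level was 1.79-fold higher in Kaede-red cells (log2 fold change 0.84 ± 0.17, adjusted p = 0.000568 in edgeR).

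At the single times the differences of Cd300ld were of like size on the log2 scale, with 0.81 ± 0.25 (adjusted p = 0.0437) for 24h and 0.87 ± 0.24 (adjusted p = 0.0105) for 72h. The call at 24h was lost when any of 10 libraries was left out. These were Kaede-green 24h replicates 1, 2 and 3, all 4 Kaede-red 24h replicates, Kaede-green 72h replicate 3 and Kaede-red 72h replicates 1 and 2, and the log2 fold change without one of them was 0.67 to 0.86. At 72h the call was lost without Kaede-green 72h replicate 1 (0.68, adjusted p = 0.056).

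Gm11710 and Gm11711, the shared measurement of the Cd300ld-like models, had the largest differences of the 6 rows in both comparisons of the colours. At 24h the Kaede-green libraries held 13.4, 15.2, 7.39 and 7.77 CPM and the Kaede-red libraries 47.6, 25.7, 28.5 and 37.5 CPM. The level at 72h was 21.9, 13.4, 6.57 and 14.1 CPM in Kaede-green libraries and 84.7, 60.0, 44.3 and 84.5 CPM in Kaede-red libraries. All 8 Kaede-red libraries lay above all 8 Kaede-green ones. The difference was 3.28-fold at 24h (log2 fold change 1.71 ± 0.30, adjusted p = 0.000301) and 4.99-fold at 72h (2.32 ± 0.29, adjusted p = 8.93e-07 in edgeR). Leaving out any 1 of the 16 libraries kept both calls.

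In counts by time, 3 of the 6 rows passed at 24h and 3 at 72h, the same 3 each time (Cd300ld, Gm11710 and Gm11711), beside 7.5% and 16.8% of all genes. The share of reads in Rn45s was lower in Kaede-red libraries, with group medians of 91.3 and 88.1% in Kaede-green and 75.7 and 68.2% in Kaede-red cells at 24h and 72h. With that share as a term of the fit, Gm11710 still passed over both times (log2 fold change 1.66, adjusted p = 0.00348), whereas Cd300ld (0.47, adjusted p = 0.604) and Cd300lb (0.86, adjusted p = 0.432) did not. Calls over all genes fell from 1959 to 156 of 9642 in the same fit. Colour and that share moved together in these libraries, and their parts in the differences of Cd300ld and Cd300lb cannot be told apart.

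**Figure D3:**
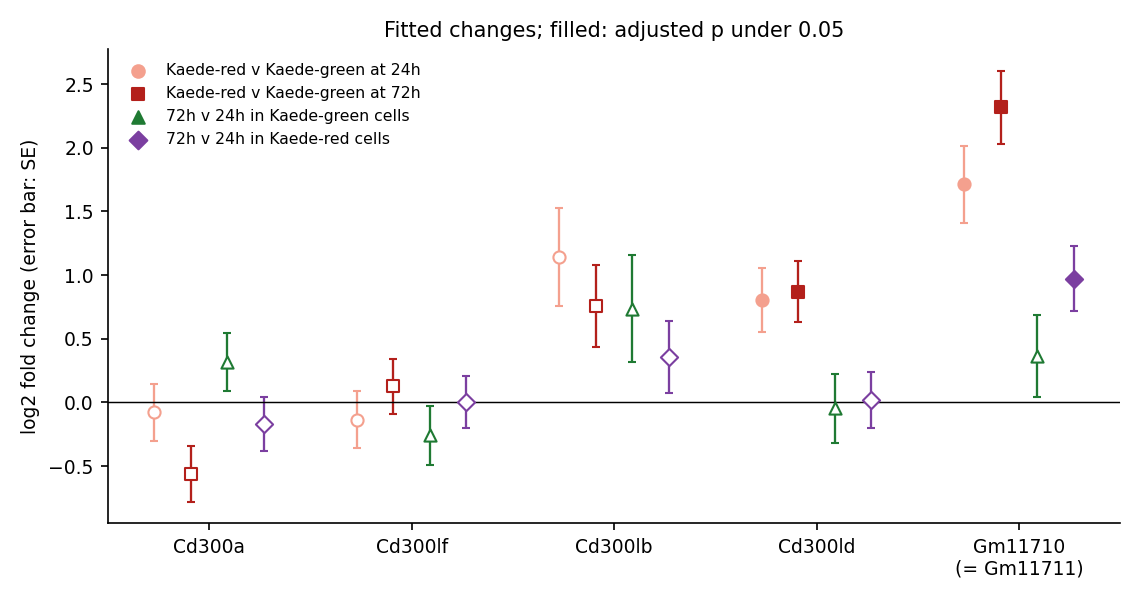
Fitted log2 fold change (vertical, error bar SE) of 5 rows in 4 comparisons, from 1 fit of 16 libraries. Filled symbols passed an adjusted p of 0.05, and they belong to Cd300ld and Gm11710, the latter with 1.71 at 24h and 2.32 at 72h.

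The question of change with time was put to each colour. In Kaede-green cells, 72h against 24h, none of the 6 rows and 0% of all genes passed in edgeR, although 835 genes had an unadjusted p under 0.05 and DESeq2 called 13. In Kaede-red cells 2 of the 6 rows passed, Gm11710 and Gm11711, beside 8.68% of all genes. Their level rose from a mean of 34.8 ± 9.91 (SD, n = 4) to 68.4 ± 19.8 CPM, with a log2 fold change of 0.97 ± 0.26 (SE) and an adjusted p of 0.0173. Only replicate 3 of Kaede-red 72h (44.3 CPM) lay below the highest Kaede-red 24h library (47.6 CPM). The call was lost without Kaede-red 24h replicate 2 or 3 or Kaede-red 72h replicate 1 or 4, with adjusted p-values from 0.0668 to 0.0852. Cd300ld differed by 0.02 ± 0.22 and Cd300lf by 0.00 ± 0.21 between the same groups on the log2 scale.

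The change of the red-green difference between 24h and 72h was tested as an interaction. None of the 6 rows passed, beside 0.757% of all genes. The interaction term of Gm11710 was 0.61 ± 0.41 on the log2 scale (adjusted p = 0.509), so the differences at 24h and 72h were not distinguishable at this error.

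Because every library has its own sequencing depth and Rn45s share, ratios of rows within a library were also formed, which do not depend on any scaling. The log2 ratio of the ITAM-coupled pair (Cd300lb plus Cd300ld) to the ITIM-bearing pair (Cd300a plus Cd300lf) was below 0 in every library, that is, the latter pair always had more counts. The annotated exons total 4738 bases in Cd300a and 5149 in Cd300lf, but 2645 in Cd300ld and 2917 in Cd300lb. These counts are not scaled to length, so the sign of the ratio does not rank the pairs by level. The ratio ran from -2.57 to -1.09 in the 8 Kaede-green libraries and from -0.86 to -0.36 in the 8 Kaede-red ones, without overlap. The Kaede-red mean exceeded the Kaede-green mean by 0.99 at 24h and 1.12 at 72h, and by 0.91 to 1.15 over both times when 1 library was left out. Cd300ld made up 8.76 to 23.9% of the counts of the 4 genes in Kaede-green and 21.3 to 35.9% in Kaede-red libraries.

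Within the Cd300ld-like genes the ratio moved as well. The log2 ratio of Gm11710 to Cd300ld was -0.19 ± 0.65 (SD, n = 4) in Kaede-green 24h, 0.70 ± 0.41 in Kaede-red 24h, 0.23 ± 1.11 in Kaede-green 72h and 1.69 ± 0.24 in Kaede-red 72h. Kaede-green 72h replicate 1, with 60 counts of Gm11710 and 17 of Cd300ld, reached 1.82 and overlapped the Kaede-red libraries, while the other Kaede-green 72h libraries stood between -0.77 and -0.05. All Kaede-red libraries were above 0. The log2 ratio of Cd300lf to Cd300a overlapped at 24h, with -0.55 to 1.54 in Kaede-green and -0.33 to 0.40 in Kaede-red libraries, where 1.54 is Kaede-green 24h replicate 4 alone. At 72h it did not overlap, with -0.74 to -0.25 against 0.01 to 0.42. These ratios were computed on rows chosen with results known and carry no test.

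**Figure D4:**
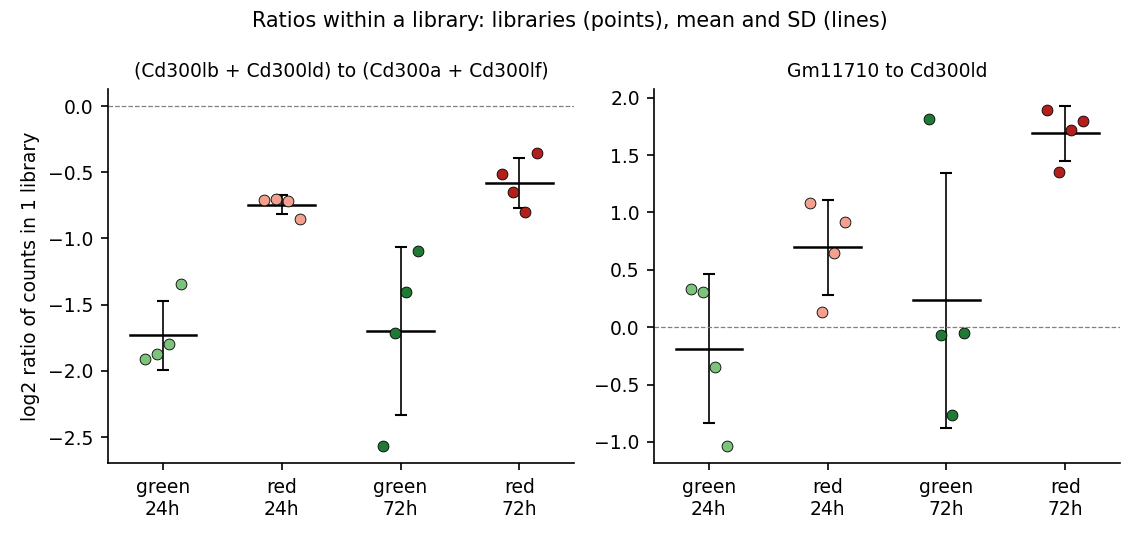
Log2 ratios of counts within single libraries (vertical) by group, with 1 point per library and the mean and SD (n = 4). The ratio of the ITAM-coupled to the ITIM-bearing pair runs from -2.57 to -1.09 in Kaede-green and from -0.86 to -0.36 in Kaede-red libraries.

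Levels between genes were compared per kilobase of annotated exons (RPKM from the scaled totals). In Kaede-red 72h cells the order was Gm11710 with 80.3 ± 23.2 (SD, n = 4), Cd300ld with 7.95 ± 1.92, Cd300lf with 4.29 ± 0.46, Cd300a with 4.11 ± 0.47 and Cd300lb with 2.35 ± 0.63 RPKM. Cd300lf and Cd300a, next to each other in this order, did not differ beyond their spread. In Kaede-green 24h cells it was Gm11710 with 12.8 ± 4.62, Cd300a with 4.89 ± 1.58, Cd300lf with 4.76 ± 1.57, Cd300ld with 4.56 ± 1.08 and Cd300lb with 0.83 ± 0.31 RPKM, where the 3 in the middle did not differ beyond their spread. The place of Cd300lf depends on its length, since on its longest coding transcript its Kaede-red 72h level was 11.7 RPKM, above Cd300ld, and its Kaede-green 24h level 13.0 RPKM, level with Gm11710. The models of Gm11710 and Gm11711 are short and their counts are equal, so their RPKM may count the same reads more than once over the family.

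The profile most like each row was sought over the 16 libraries as the smallest root mean square difference of centred log2 CPM among all genes tested. Gm11710 was nearest to Gm11711 (0) and Cd300lh (0.13), and then to Slc37a2, a sugar-phosphate exchanger of macrophages, at 0.44. The nearest genes to Cd300ld were Txnip at 0.28, Brd2 at 0.31 and Gbp10 at 0.32. For Cd300lb they were Tnfrsf11a, the receptor RANK, at 0.35, Mtmr9 at 0.39 and Mgrn1 at 0.40. Cd300lf was nearest to Max at 0.21, Coa5 at 0.21 and Ubr2 at 0.22, and Cd300a to Raly at 0.19, Ppp1cb at 0.20 and Rpl7a at 0.21. The root mean square of each row's own profile was 1.16 for Gm11710, 0.70 for Cd300lb, 0.54 for Cd300ld, 0.36 for Cd300a and 0.27 for Cd300lf, so the last 2 had the flattest profiles of the 6 rows.

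Other rows listed with the family were Cd300e, Cd300lh, AF251705, Cd300lg and Cd300c, of which the first 4 were tested. Over both times 2 of the 4 were higher in Kaede-red cells and none lower, beside 20.3% of all genes in either direction. Cd300lh followed Gm11710, with which it shares most of its sequence (log2 fold change 2.01 ± 0.21, adjusted p = 1.39e-08 in edgeR). Cd300e, a DAP12-coupled receptor of monocytes, had 0 to 3 counts in Kaede-green 24h, 41 to 92 in Kaede-red 24h, 4 to 20 in Kaede-green 72h and 41 to 429 in Kaede-red 72h libraries. Its log2 fold change was 2.76 ± 0.53 in the 24h comparison (adjusted p = 0.000948) and 1.18 ± 0.37 in that of 72h (adjusted p = 0.0233), and the low counts of Kaede-green 24h limit the first of these.

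AF251705 was not matched to an entry of the annotation by symbol or synonym and is given no position here. Its level was 19.7 ± 6.19 CPM (SD, n = 4) in Kaede-green 24h, 31.8 ± 3.91 in Kaede-red 24h, 27.4 ± 2.69 in Kaede-green 72h and 19.7 ± 2.88 in Kaede-red 72h cells. At 24h it was higher in the Kaede-red group (log2 fold change 0.71 ± 0.21, adjusted p = 0.0336) and fell in Kaede-red cells between the times (-0.68 ± 0.19, adjusted p = 0.0264). The red-green difference changed with time by -1.18 ± 0.29 (adjusted p = 0.0482 in edgeR). Cd300lg, known from endothelium and mapped outside the cluster at chr11:102041509-102055620, had at most 73 counts and passed in no comparison, and Cd300c had at most 8 counts.

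**Figure D5:**
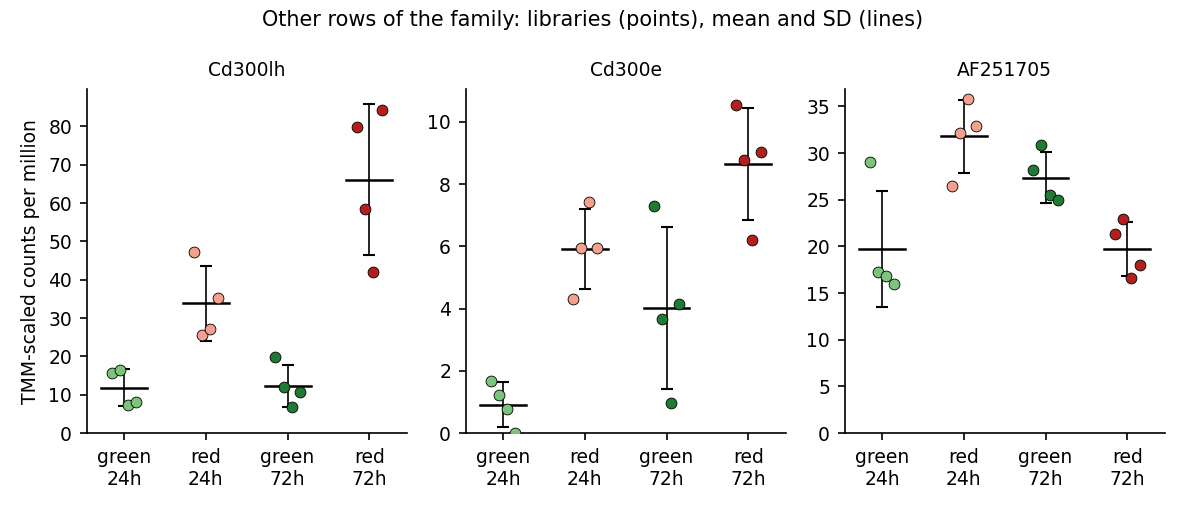
TMM-scaled CPM (vertical, from 0) of Cd300lh, Cd300e and AF251705 by group, with 1 point per library, mean and SD (n = 4). AF251705 averaged 31.8 CPM in Kaede-red 24h and 19.7 CPM in Kaede-red 72h cells, whereas Cd300lh and Cd300e stand highest in Kaede-red 72h.

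Of the adaptors, kinases and phosphatases that these receptors use, 19 were tested. In the comparison over both times 5 of them were higher in Kaede-red cells and 3 lower, beside 20.3% of all genes in either direction. Values below are log2 fold changes ± SE in edgeR. Tyrobp, which encodes DAP12, had a mean of 114 CPM in Kaede-green libraries and of 52.8 CPM in Kaede-red libraries, with no overlap of the libraries (log2 fold change -1.10 ± 0.15, adjusted p = 1.48e-06). Fcer1g, the adaptor of Cd300ld, stood at 122 and 124 CPM (0.04 ± 0.14, adjusted p = 0.866). The kinases Src (-0.74 ± 0.26) and Fyn (-0.50 ± 0.17) were lower. Among the higher ones were Vav1 (0.62 ± 0.15), Lcp2, which encodes SLP-76 (0.60 ± 0.15), Inpp5d, the phosphatase SHIP-1 (0.52 ± 0.18), and Ptpn6 (0.48 ± 0.15). Syk, the kinase that ITAMs recruit, did not pass over both times (0.40 ± 0.16, adjusted p = 0.0661) but was higher at 72h (0.89, adjusted p = 0.00337). In Kaede-red cells 8 of the 19 rose between 24h and 72h, among them Inpp5d (1.17) and Syk (1.05), and none fell. Of all genes 8.68% passed in either direction in that comparison.

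Of a list of other paired immunoglobulin-type, scavenger and engulfment receptors 31 were tested. Of these, 14 passed with a higher and 4 with a lower level in Kaede-red cells over the 2 times combined, beside 20.3% of all genes in either direction. The activating paired receptors Pira1 (1.03 ± 0.19), Pira2 (1.01 ± 0.17), Pira6 (0.54 ± 0.16) and Pira11 (1.06 ± 0.21) were higher, as was their inhibitory partner Pirb (0.57 ± 0.16). These genes are close copies of each other and their counts may share reads. Inhibitory Pilra (0.61 ± 0.19), Lair1 (0.80 ± 0.14), Sirpa, the receptor of CD47 (1.23 ± 0.15), and Siglece (2.01 ± 0.58) were higher, together with activating Pilrb1 (1.06 ± 0.36), the sialic acid receptor Siglec1 (1.30 ± 0.16), the scavenger receptor Stab1 (0.68 ± 0.17) and the engulfment receptors Mertk (1.42 ± 0.27) and Axl (0.91 ± 0.13). The lower ones were Trem1 (-1.54 ± 0.20) and Trem3 (-1.51 ± 0.37), which amplify inflammation through DAP12, Cd33 (-1.36 ± 0.35) and Sirpb1b (-0.52 ± 0.15).

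Genes within 200 kb of the cluster numbered 15, of which 6 were tested. Slc9a3r1 (log2 fold change 0.95 ± 0.19, adjusted p = 0.000459) and Tmem104 (1.06 ± 0.22, adjusted p = 0.000593) were higher in Kaede-red cells over both times. Ttyh2 (0.71 ± 0.49), Nat9 (0.89 ± 0.43), Fdxr (1.00 ± 0.57) and Kif19a (1.67 ± 0.78) did not pass. The share of all genes that passed in either direction was 20.3%.

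Markers of cell types moved with colour alongside the Cd300 rows, in a comparison over both times in which 20.3% of all genes passed in either direction. Of the 14 monocyte and macrophage markers 9 were higher in Kaede-red cells over both times, with C1qa from 13.5 to 81.9 CPM, Mrc1 from 15.9 to 44.2 and Adgre1 from 15.6 to 45.6, and 1, Lyz2, was lower (1051 and 450 CPM). Csf1r (0.95), Cd68 (1.14), Itgam (0.44), C1qb (2.26) and C1qc (2.53) were also higher on the log2 scale. The summed level of the list ran from 1246 to 2722 CPM in Kaede-green and from 1083 to 2144 CPM in Kaede-red libraries. Of the neutrophil markers, 5 were tested, with Csf3r higher (0.67) and Il1r2 (-0.60) and Hdc (-0.61) lower, and the list summed to 82.1 to 124.5 and 53.5 to 111.5 CPM in Kaede-green and Kaede-red libraries. Tumour, stromal and erythroid markers summed to 26.8 to 39.3 CPM in Kaede-green and 14.5 to 30.8 CPM in Kaede-red libraries. Of their 5 tested members Col1a1 (-1.12), Col1a2 (-1.39) and the endothelial gene Cdh5 (-1.42) were lower and Pecam1 (1.02) higher in Kaede-red cells on the log2 scale. Ccr7 (4.53, from a mean of 0.22 to 1.65 CPM), 1 of 2 dendritic cell markers tested, was higher. It had 0 counts in every Kaede-green 24h library, which limits that value. Cd4 (2.46, from 0.15 to 0.76 CPM), 1 of 2 T, NK and B cell markers tested, was also higher. Dendritic cell markers summed to at most 5.18 CPM, T, NK and B cell markers to at most 6.54, mast cell and basophil markers to at most 1.68 and eosinophil markers to at most 1.64 CPM in any library, with 8 of 9 mast cell and basophil markers at 0 throughout Kaede-green. The part of these markers in the differences of the Cd300 rows was not tested.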

How the data were processed

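Bulk RNA-seq libraries were made from CD11b+ cells sorted from MC38-Ova tumours, with 5 ng of total RNA and a stranded total RNA kit (SMARTer pico input), and read as 150-base pairs. The authors trimmed the reads (Trim Galore, FastQC), aligned them to mm10 (HISAT2) and deposited raw counts per gene made with featureCounts; tool versions, the annotation, the strand setting and the treatment of reads with several matches are not given in the sources used here. The deposited counts hold 24421 genes in 16 libraries, with 3216858 to 15423085 counts each.

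Genes were filtered with filterByExpr and tested in edgeR 4.0.16 (R 4.3.3) by the quasi-likelihood test with TMM factors, 1 mean per group and Benjamini-Hochberg adjustment over 9642 genes, with adjusted p under 0.05 as the threshold. Alternatives were DESeq2 1.42.0, RLE factors, library-size scaling, other filters, fits of the compared groups alone, a replicate block, Rn45s removed or as a covariate, each library left out, and, chosen after seeing the data, Gm11710, Gm11711 and Cd300lh as 1 row and RPKM on the longest coding transcript. The fit was also run on counts simulated from its own means, dispersions and library sizes, with independent libraries. That check cannot bear on the Rn45s share or on shared tumours, which it did not include. The labels do not name the mice. The study describes these bulk libraries as coming from tumours of different animals, but green and red libraries may share a tumour. The main fit holds no term for tumour, so its p-values measure the spread between libraries of a group and treat the colours as independent.

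Positions and transcripts came from GENCODE (mm10), promoters and synonyms from RefSeq (GRCm38.p6); 24001 of 24421 symbols matched. The members, gene lists and the promoter motif were chosen with earlier results of these data known. Named genes were the members, other Cd300 rows, listed genes called over both times, tested genes within 200 kb and the 3 nearest profiles; Syk and some 72h values were named beyond that rule after their values were seen. A few listed genes are counted but not reported here by name.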

Additional observations from a re-analysis of the deposited data

Results flagged for a closer look

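Cd300ld in Kaede-red 72h replicate 3 stood at 13.46 CPM, apart from the 22.7 to 24.4 CPM of the other 3 libraries of its group by Dixon's test. Without that library the log2 fold change, Kaede-red to Kaede-green, was 1.04 at 72h, against 0.87 with it. The same library had the fewest counts outside Rn45s of its group, 1080792.

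AF251705 in Kaede-green 24h replicate 1 stood at 29.0 CPM, above the 15.95 to 17.2 CPM of the other 3 libraries of its group. Chance flags about 1 in 20 groups, and 36 groups of 4 libraries were examined in this way, of which 2 were flagged.

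AF251705 differed between the times in its red-green difference, which was 0.71 at 24h and -0.46 at 72h. The interaction term was -1.175 on the log2 scale (SE 0.29, adjusted p = 0.0482 in edgeR), close to the threshold.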

How the results depend on the processing

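The differences of Gm11710 and Gm11711 between the colours kept their direction and their call under every alternative run. Over both times the log2 fold change was 1.66 with the Rn45s covariate, 4.19 with library-size scaling, 1.98 to 2.14 under the other settings and 1.88 to 2.15 with 1 library left out. Counts of the 6 rows called moved as follows. With the Rn45s share as a covariate 2 were called over both times (4 without it) and 0 in Kaede-red cells between the times (2 without it), while calls over all 9642 genes fell from 1959 to 156 and from 837 to 110. With scaling by library size alone 6 were called at 24h and 6 at 72h (3 each in the reported fit), as were 9054 and 8134 of 9642 genes, and 0 between the times in Kaede-red cells. That scaling put the median of all genes over both times at 2.20 (0.06 in the reported fit), and Cd300a (1.842 for the times combined, 2.24 for 24h, 1.443 for 72h) and Cd300lf (2.19 and 2.21 at 24h) then turned positive, with Cd300a near or below that shift. With Gm11710, Gm11711 and Cd300lh as 1 row, 1 of 5 rows was called in Kaede-red cells between the times. Leaving out 1 library gave 4 to 5 rows for the times combined, 2 to 3 at 24h, 2 to 4 at 72h and 0 to 2 between the times in Kaede-red cells, 0 without Kaede-red 24h replicate 2 or 3 or Kaede-red 72h replicate 1 or 4. On CPM of counts outside Rn45s the log2 ratio of the mean levels, red to green, rose to 0.453 for Cd300a (-0.33 on scaled CPM), 1.633 for Cd300lb, 1.585 for Cd300ld, 0.733 for Cd300lf (-0.03) and 2.854 for Gm11710 and Gm11711, while the median over all genes tested rose from 0.06 to 0.81, above Cd300a and Cd300lf on both scales. The cause of the other shifts was not tested.

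Whether replicate numbers pair the libraries by tumour is not stated. The correlations below cannot decide it, because libraries of a shared tumour need not correlate strongly. Deviations of same-numbered green and red libraries correlated with r from -0.018 to 0.153 (median 0.039, 8 pairs). Those of other numbers ran from -0.132 to 0.147 (median -0.019). Same-numbered pairs had r of 0.08, 0.092, 0.049 and 0.153 at 24h and of -0.003, 0.029, -0.018 and 0 at 72h. With the number as a replicate block, 4 of the 6 rows were called for the times combined, 3 for 24h and 4 for 72h, where Cd300a was added (-0.56, adjusted p = 0.0429), and 1852 of all genes against 1959 over both times.

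Rows with log2 fold changes near 0 changed sign without a call. Cd300lf over both times (-0.003) was 0.118 without a filter, 0.06 with at least 10 counts in every library, 0.001 with the Rn45s covariate and -0.102 to 0.106 with 1 library left out. At 24h Cd300a was 0.01 without a filter, 0.046 with at least 10 counts and -0.295 to 0.031 with 1 library left out, and Cd300lf -0.312 to 0.102. Between the times in Kaede-green cells Cd300ld ran from -0.185 to 0.125 with 1 library left out and, with library-size scaling, was 0.718, and Cd300lf 0.437. In Kaede-red cells between the times Cd300ld and Cd300lf were -0.032 and -0.044 in DESeq2, -0.036 and -0.046 with RLE factors, -0.041 and -0.062 with at least 10 counts, -0.019 and -0.033 without Rn45s, and -0.059 to 0.175 and -0.074 to 0.057 with 1 library left out. Cd300ld was -0.183 there with the Rn45s covariate and -0.011 with the replicate block, and Cd300a 0.159 with library-size scaling. The interaction of Cd300ld was -0.279 and that of Cd300lf -0.04 with library-size scaling, and that of Cd300ld was -0.033 with at least 10 counts, -0.045 with the covariate and -0.127 to 0.217 with 1 library left out. The 3 to 20 counts of Cd300lb in Kaede-green libraries limit its precision.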
